A study of Mus musculus with 17 samples.

Results

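Aldh1a3, Fev, Neurog3, Sox9, Sox4, Sox11, Cd24a and Hes1 mark endocrine progenitors of the embryonic pancreas or beta cells that have lost part of their identity. These 8 genes were taken by name from a table of unique molecular identifier (UMI) counts with 40824 genes, each gene having 1 row. Cd24a had UMIs in 1811 of the 2999 cells, Hes1 in 955, Fev in 947, Sox9 in 794, Sox4 in 791, Aldh1a3 in 252, Neurog3 in 19 and Sox11 in 16. Neurog3 (Ngn3) is the transcription factor that commits pancreatic progenitors to the endocrine lineage, and Fev is a transcription factor that follows it in endocrine precursors. Sox9 and Hes1 act before that step: Sox9 maintains the progenitor and duct epithelium, and Hes1 is a repressor switched on by Notch signalling that keeps Neurog3 low. Sox4 and Sox11 are related transcription factors of differentiating endocrine cells, Cd24a is a small surface protein of progenitor and duct epithelium, and Aldh1a3 is a retinaldehyde dehydrogenase that makes retinoic acid and is widely used to mark dedifferentiated beta cells in diabetes.

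The cells came from the pancreas of Ngn3-Cre; Rosa-RFP mice, in which Cre under Neurog3 control switches on a red fluorescent protein (RFP) in cells of the endocrine lineage, and RFP+ cells were sorted. All groups carry both alleles. Male mice aged 2 months were fasted overnight and given 1 intraperitoneal injection of streptozotocin (STZ), a toxin taken up by beta cells, at 200 mg/kg. Controls treated at the same age were injected with citrate buffer (3 libraries). STZ mice with insulin implants were sampled at day 6 (D6), day 12 (D12, 2 libraries), day 30 (D30), day 42 (D42) and months 2, 5 and 9 (M2, M5 and M9), with 1 library at each time but D12. At M9 the implants had been discontinuous over the last 2 months. No control library is labelled with a later time. The age of the mice and the time after STZ therefore cannot be told apart, above all at M5 and M9. STZ mice without implants were sampled at month 2 (2 libraries), and untreated young mice at postnatal day 3 (P3, 1 library), 12 (P12, 2) and 21 (P21, 1). Nothing in the labels says whether libraries of a group came from separate animals, so the p-values measure only the spread between libraries, which may be technical.

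The 17 libraries held 2999 cells and 1420536 to 26298456 UMIs each, with a median of 61193 UMIs per cell. No cell name was shared between libraries. Cells were clustered here without the 8 genes, which gave 1025 beta, 607 alpha, 269 delta, 167 PP (pancreatic polypeptide), 758 acinar, 104 ductal and 29 immune cells by their markers, and 40 P3 cells that stayed unnamed. P3 beta cells stood apart: 142 of the 145 cells of a separate beta cluster came from P3, and that cluster was led by Prss1, a trypsin gene of acinar cells, with no beta marker among its 10 leading genes. Results on P3 beta cells rest on it. Beta cells were few after STZ, from 8 at M2 to 68 at M5 with implants and 5 and 11 without, against 21 to 210 in the controls. Mafa, a beta-cell transcription factor among the beta markers, had 0 UMIs in the beta cells of all 17 libraries. The controls are among these, so the counts cannot show whether Mafa changed after STZ, and the reason was not tested.

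Neurog3 and Sox11 were the rarest of the 8. Their upstream sequences are shown because both genes turned up mainly in the same kind of cell, those with high Sst (somatostatin). The 250 bases before each start are from RefSeq (GRCm38.p6), 5′ to 3′ on the gene's strand, at chr10:62132840-62133089 (+) for Neurog3 and chr12:27342719-27342968 (−) for Sox11. Capitals mark matches on either strand to the E-box CANNTG, bound by Neurog3 and other basic helix-loop-helix proteins, and to the N-box CACNAG, bound by Hes proteins.
Neurog3: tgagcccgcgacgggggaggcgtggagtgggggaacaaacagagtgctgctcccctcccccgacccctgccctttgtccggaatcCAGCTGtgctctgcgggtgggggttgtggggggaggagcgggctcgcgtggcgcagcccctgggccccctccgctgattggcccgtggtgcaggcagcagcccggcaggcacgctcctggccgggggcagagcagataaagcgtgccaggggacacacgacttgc
Sox11: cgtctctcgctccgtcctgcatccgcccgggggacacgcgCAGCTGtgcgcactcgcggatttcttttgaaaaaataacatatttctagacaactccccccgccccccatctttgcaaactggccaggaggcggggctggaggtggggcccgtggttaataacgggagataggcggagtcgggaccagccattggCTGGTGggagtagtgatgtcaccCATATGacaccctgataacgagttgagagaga
The Neurog3 window held 1 E-box match, CAGCTG, whose first base lies 165 bases before the start. The Sox11 window held CAGCTG and CATATG, with first bases 210 and 32 bases before the start, and 1 N-box match on the opposite strand, read as CTGGTG, 55 bases before it. E-box matches occurred in 66.2% and N-box matches in 36.7% of the same window of 32851 mouse promoters, and TGGGAA, the core that RBPJ (the DNA-binding partner of Notch) recognises, in 21.6%. Neither window held TGGGAA. On GRCm38.p6 the genes span chr10:62133090-62134763 (Neurog3) and chr12:27334268-27342718 (Sox11). The others lie at chr7:66390892-66427477 (Aldh1a3), chr1:74881501-74885473 (Fev), chr11:112782210-112787757 (Sox9), chr13:28948919-28953699 (Sox4), chr10:43579169-43584265 (Cd24a) and chr16:30065357-30067796 (Hes1). The motifs do not overlap one another in these windows, and a match is a description of the letters, not of a bound site.

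Neurog3 was found in 19 cells with 26 UMIs in all, 15 of them with 1 UMI. Delta cells made up 12 of the 19, with 3 alpha, 2 beta, 1 PP and 1 unnamed cell. By content, 14 of the 19 held Sst at 1% or more of their UMIs, which is 4.38% of the 320 such cells in the table and compares with 0.187% of all other cells. None of the 19 was in a control library, and a difference from the controls is not detectable with their 18 delta cells. Among delta cells of libraries with at least 10 of them, levels ran from 0 to 3.2 CPM (the UMIs of a gene relative to all UMIs of that class in that library, on the usual CPM scale). Sox11 was found in 16 cells with 98 UMIs. Delta cells were 10 of these, and 12 of the 16 held Sst at the same limit, which is 3.75% of those cells against 0.149% of the others. A single P3 delta cell held 35 of the 98 UMIs. No cell held both genes, and neither reached the minimum count for a test in beta, alpha, delta or PP cells.

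Across cell classes the 6 other genes fell into different patterns, given here as medians over libraries with at least 10 cells of the class and without a test, since the classes are clusters of the same cells. Aldh1a3 was highest in beta cells, at a median of 17.9 CPM over 15 libraries, while alpha, PP and ductal cells had a median of 0. Its range in beta cells, 0.381 to 152 CPM, overlapped that of delta cells (0 to 36.4 CPM). By median, Fev was highest in the non-beta endocrine cells: 64.0 CPM in delta, 60 in alpha and 58.6 in PP cells, whose ranges overlapped. Beta cells had 7.38 and acinar cells 1.60. The beta range, 1.46 to 93.2 CPM, overlapped those of delta, alpha and PP cells.

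Sox9, Hes1 and Sox4 were highest in ductal cells. Sox9 had a median of 272 CPM in 4 ductal libraries (208 to 484), above every delta library (1.68 to 70.7), and 2.55 in beta cells. Hes1 had 883 CPM in ductal cells (525 to 1110), above the 37.8 of PP and 11 of beta cells with no overlap. Sox4 differed least, with 48.4 CPM in ductal (38.5 to 57.2), 18.1 in beta and 15.9 in alpha cells, and its ductal range lay above that of beta cells but overlapped those of alpha (up to 44.8) and PP cells (up to 45.6). Cd24a was shared by delta (842 CPM, 588 to 1404) and ductal cells (831 CPM, 630 to 943), whose ranges overlapped, followed by acinar cells (274 CPM, 165 to 421) and, far below, beta cells (36.2), alpha cells (25.6) and PP cells (15.0). Thus 1 UMI of Cd24a was found in 94.3% of acinar cells thinned to 25470 UMIs, but Aldh1a3 in 2.27% and Fev in 2.40% of them. The plot of levels by class shows each library, in which Sox9 and Hes1 share a ductal peak that Aldh1a3 and Fev lack.

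**Figure D1:**
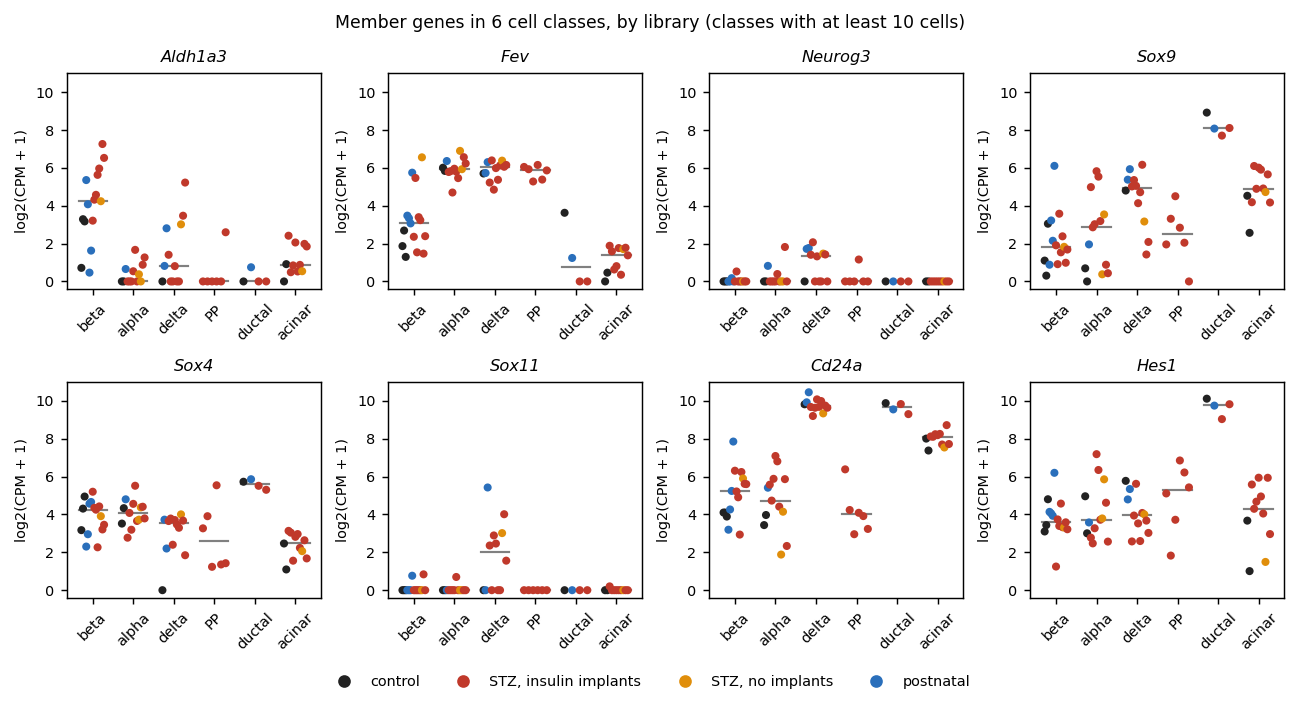
Levels of the 8 genes by cell class, as log2(CPM + 1); each point is a library with at least 10 cells of the class, coloured by arm, and each grey line is the median over libraries. Aldh1a3 is highest in beta cells, Fev in delta, alpha and PP cells, Sox9, Hes1 and Sox4 in ductal cells, and Cd24a in delta and ductal cells, while Neurog3 and Sox11 lie at or near 0 outside delta cells.

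Over 62 sums of a class in a library, the genes whose levels most resembled each of these were found among 8359 genes by Pearson's r of log2(CPM + 10), as a description in which sums of the same library share its depth. For Aldh1a3 these were 6330403K07Rik (0.83), Aqp4 (0.77) and Rspo4 (0.76). For Fev they were Smarca1 (0.89), Gnas (0.88) and Dbpht2 (0.88), and for Cd24a Hhex (0.82), Ehf (0.80) and Clmn (0.79). Sox9 was nearest to Nfib (0.94), Clmn (0.89) and Cat (0.88), Hes1 to Kcne3 (0.88), Slc39a4 (0.87) and Gja1 (0.86), and Sox4 to Ldhb (0.68), Sorbs2 (0.67) and Phldb2 (0.67). The rare Neurog3 was nearest to Mest (0.65), Arg1 (0.61) and Gap43 (0.61), and Sox11 to Mest (0.65), Gyk (0.64) and Tekt2 (0.61). Among the 8 themselves, Sox9 went with Hes1 (0.72) and Cd24a (0.68), while Aldh1a3 had no r above 0.06 with any other.

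Aldh1a3 had the largest fold change of the 5 members tested when all implanted STZ libraries were compared with controls, without being called. The 3 control libraries had 0.644, 8.77 and 8.01 CPM. With implants the level was 61.5 at D6, 8.26 and 19.0 at D12, 22.8 at D30, 48.6 at D42, 152 at M5 and 91.2 at M9. The 8 beta cells of M2 held 0 UMIs, which allows up to 7.58 CPM at 3 counts. Thus 6 of the 8 STZ libraries lay above the highest control, and D12 replicate 1 (6 UMIs) and M2 overlapped the controls. M5 and M9 rested on 775 and 494 UMIs, and no cell of either held more than 124.

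The arm difference was a log2 fold change of 3.41 ± 0.91 (SE), with an adjusted p of 0.0501 by edgeR's quasi-likelihood test, just above the threshold of 0.05. This was no call: 303 of 10741 genes passed in this comparison, or 2.82%, and of the 5 members tested there (Aldh1a3, Cd24a, Fev, Hes1 and Sox4) none did. Their median log2 fold change was 1.44, against 0.00 over all genes tested. Aldh1a3 passed without D12 replicate 1 (3.56, adjusted p = 0.0293), D12 replicate 2 (3.54, 0.0448), D30 (3.52, 0.0481) or M2 (3.56, 0.0211), each by edgeR. Over the 20 alternatives run its log2 fold change stayed between 2.26 and 4.51, with adjusted p from 6.49e-06 to 1.00. The lower bound and the upper end of that p came from cells whose raw file names begin with 1 shared code. Control replicate 2, D6, D30 and M2 had such beta cells, and the labels do not say what the code stands for. The log2 fold change of Aldh1a3 was 2.26 ± 1.63 (SE) there. M5 and M9 had none of these cells.

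Single times were taken from 1 fit over the 12 groups with 13397 genes, where a lone library is assumed to vary like the replicated groups, and every contrast shares the same 3 controls. Aldh1a3 rose at M5, by a log2 fold change of 4.93 ± 0.92 (edgeR adjusted p = 0.0364), 1 of the 28 genes called there (0.209%). The call was lost without control replicate 2 (5.86, adjusted p = 0.0727), control replicate 3 (5.16, 0.0831) or D12 replicate 1 (4.89, 0.0615), and by DESeq2 (4.77, 0.169), and over all 23 alternatives the adjusted p ran from 1.64e-16 to 0.169. At M9 the value was 3.98 ± 0.91 with an edgeR adjusted p of 0.0723, where 72 genes were called (0.537%). D6 gave 3.49 (adjusted p = 0.387; 9 genes called, 0.0672%) and D42 gave 3.32 (0.309; 42 genes, 0.314%) by edgeR. D30 gave 2.12 (0.881; 19 genes, 0.142%) and D12 gave 1.43 (0.742; 69 genes, 0.515%). M2 called 11 genes (0.0821%), none of them members. Leaving out replicate 1 or 2 of the mice without implants, which share the estimate of spread, made Aldh1a3 a call at M9 (edgeR adjusted p = 0.0033 or 0.0039; 7.05e-11 to 0.546 over 23 alternatives) and at D6 (0.0349 or 0.0375; 4.50e-07 to 1.00). No gene passed for a trend over log2 days from D6 to M9 by edgeR (0 of 10078, 0.0%; 295 at an unadjusted p under 0.05, and 10 by DESeq2). The slopes of the 5 members tested were 0.35 (Aldh1a3), −0.56 (Fev), −0.30 (Sox4), −0.13 (Cd24a) and 0.05 (Hes1). Their unadjusted edgeR p-values were 0.0387, 0.0241, 0.0367, 0.325 and 0.763 in that order.

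The share of beta cells with an Aldh1a3 UMI gives the same picture by cell. After thinning every cell to 25470 UMIs, 14 of 353 control beta cells (3.97%, exact Clopper-Pearson 95% interval 2.18 to 6.56) and 72 of 247 implanted STZ beta cells (29.1%, 23.6 to 35.2) held one. Intervals cover counting error only. By library the controls were at 1.5, 6.77 and 10%, and the STZ libraries at 14.3% (D6), 8.33 and 15.6% (D12), 14.8% (D30), 25.0% (D42), 0% of 8 cells (M2), 48.4% (M5) and 39.3% (M9). Again 6 of 8 STZ libraries exceeded the highest control, and overlap remained. In the same libraries 169 of 13862 genes (1.22%) had a share above every control in every STZ library, and 198 (1.43%) had one below. None of the 6 members counted there did either. Acinar cells, at 2.27%, and alpha cells, at 1.89%, give the level over all libraries in cells with little or no Aldh1a3. In the M5 and M9 libraries the unthinned shares were 54.4 and 51.7% in beta cells, 38.5 and 25.9% in acinar cells (2.96 and 2.60 CPM), 3.45 and 7.89% in alpha cells and 20 and 26.1% in delta cells (10.1 and 36.4 CPM), at 26 and 27 acinar, 29 and 76 alpha, and 15 and 23 delta cells. Before thinning, the beta shares were 5.68% and 34.5%, at median depths of 60332 and 62548 UMIs per cell.

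**Figure D2:**
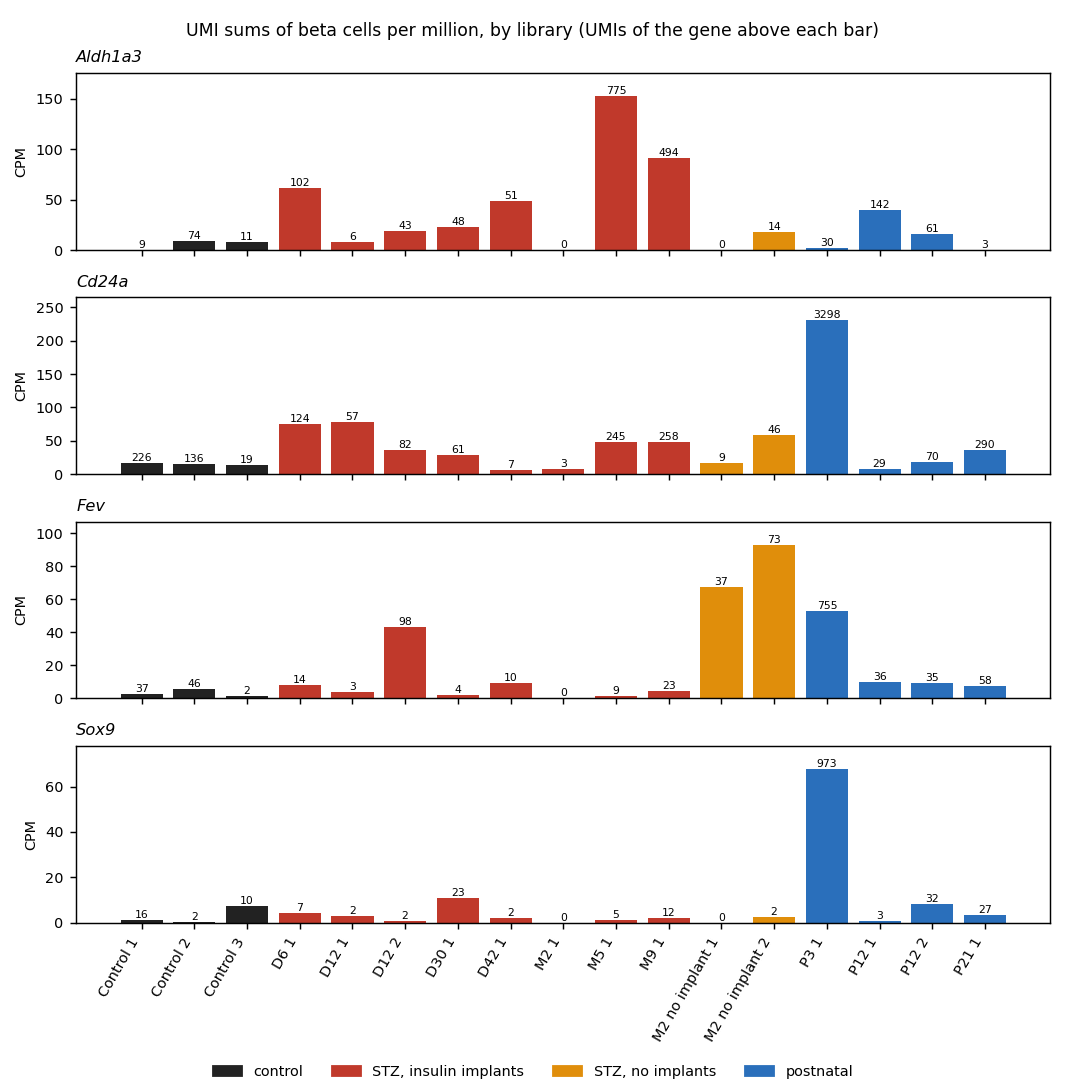
Level of Aldh1a3, Cd24a, Fev and Sox9 in the beta cells of each of the 17 libraries (CPM, linear axes from 0, each gene on its own scale); bars are single libraries with the UMIs of the gene above them. Aldh1a3 is highest at M5 (152) and M9 (91.2), Fev without implants (67.3 and 93.2), and Cd24a (230) and Sox9 (67.9) at P3.

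Within a library, Aldh1a3-positive beta cells held fewer Ppy UMIs than the rest after STZ. Ppy encodes pancreatic polypeptide, a hormone of PP cells. At M5 the 31 positive cells averaged 45.8 Ppy UMIs per thinned cell against 304 in the 33 negative ones. At M9 the averages were 126 in 22 cells and 649 in 34, at D42 16.4 in 5 and 630 in 15, and in D12 replicate 2 49.8 in 5 and 223 in 27. The order was the same in these 4 libraries, which are the STZ libraries with implants holding at least 5 positive cells, and opposite in control replicate 2, with 184 in 9 cells against 76.6 in 124. Ucn3, a peptide gene of mature beta cells, did not separate them in 1 direction. It was 3.77 against 3.76 UMIs at M5, 3.55 against 0.971 at M9, 4.60 against 0.60 at D42 and 0.20 against 0.63 in D12 replicate 2. Ins1 was higher in the positive cells in 3 of these 4 libraries (1394 against 1303 at M5, 776 against 336 at M9 and 1786 against 1100 at D42) and lower in D12 replicate 2 (839 against 876). Ins2 was lower in 3 of the 4 and higher at M9 (1688 against 1655). Slc2a2 and Nkx6-1, 2 further beta-cell genes, were each lower in the positive cells in 2 of the 4 libraries and higher in 2. Ppy is not a maturity gene, and how many cells carry its averages was not examined. These are averages over cells of 1 library each and were not tested.

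Mixed cells, defined as beta cells with at least 1% of their UMIs from 1 of Gcg, Sst, Ppy, Pyy and Prss2 (hormones or an enzyme of other classes), were 3.81 to 19.0% of control beta cells, 16.2 to 58.6% of implanted STZ beta cells and 54.2% at P3. No doublet caller was run. Summed PP markers in beta cells were 2697 to 5453 CPM in controls and 8814 to 31198 CPM after STZ with implants, with Ptgfr at 0 in both M5 and M9. Without the mixed cells the STZ difference of Aldh1a3 was 4.17 (edgeR adjusted p = 0.0125) and that of Cd24a 2.01 (0.0154), so both were larger than with them.

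Cd24a had a smaller difference after STZ. Both it and Aldh1a3 lay above every control at D6, D12 replicate 2, D30, M5 and M9, but their highest libraries differed. Control beta cells had 16.2, 16.1 and 13.8 CPM. After STZ with implants the values were 74.7 at D6, 78.5 and 36.2 at D12, 29.0 at D30, 6.66 at D42, 7.58 at M2, 48.1 at M5 and 47.6 at M9. Here too 6 of 8 libraries lay above every control, but D42 and M2 lay below all 3, and Aldh1a3 was high at D42 (48.6). The M2 value, from 8 cells, is the 7.58 CPM that 3 counts give there, so its place below the controls is not resolved at this depth. The log2 fold change of 1.44 ± 0.49 did not pass (edgeR adjusted p = 0.158, and 0.0154 to 1.00 over 20 alternatives), nor did D12 (1.85, 0.154), D6 (2.20, 0.327), M5 (1.70, 0.435) or M9 (1.48, 0.525). Without replicate 1 or 2 of the mice without implants Cd24a was a call at D12 (edgeR adjusted p = 0.0137 or 0.0152; 0.0022 to 1.00 over 24 alternatives) and at D6 (0.022 or 0.0259; 0.0027 to 0.854). Thinned shares were 11.6% (8.47 to 15.4) in controls and 34.8% (28.9 to 41.1) after STZ. Summed delta markers in beta cells were 269 to 1247 CPM in controls and 740 to 5609 CPM after STZ, and delta cells hold Cd24a at 842 CPM. Their part in the result was not tested.

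Cd24a was held by 26 of the 72 Aldh1a3-positive thinned STZ beta cells, beside 86 of all 247, and by 4 of 14 in controls, beside 41 of all 353. The shares of the STZ cells were thus close to each other. Aldh1a3 and Fev were together in 1 control, 1 STZ cell with implants, 1 without and 3 postnatal cells. Counting all 8 genes, 9.35% of thinned control beta cells, 29.6% of STZ beta cells with implants, 53.3% of the 15 without and 33.5% of postnatal ones held UMIs of at least 2 of them. P3 alone stood at 64.4%, and P12 replicate 1 at 6.78%.

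**Figure D3:**
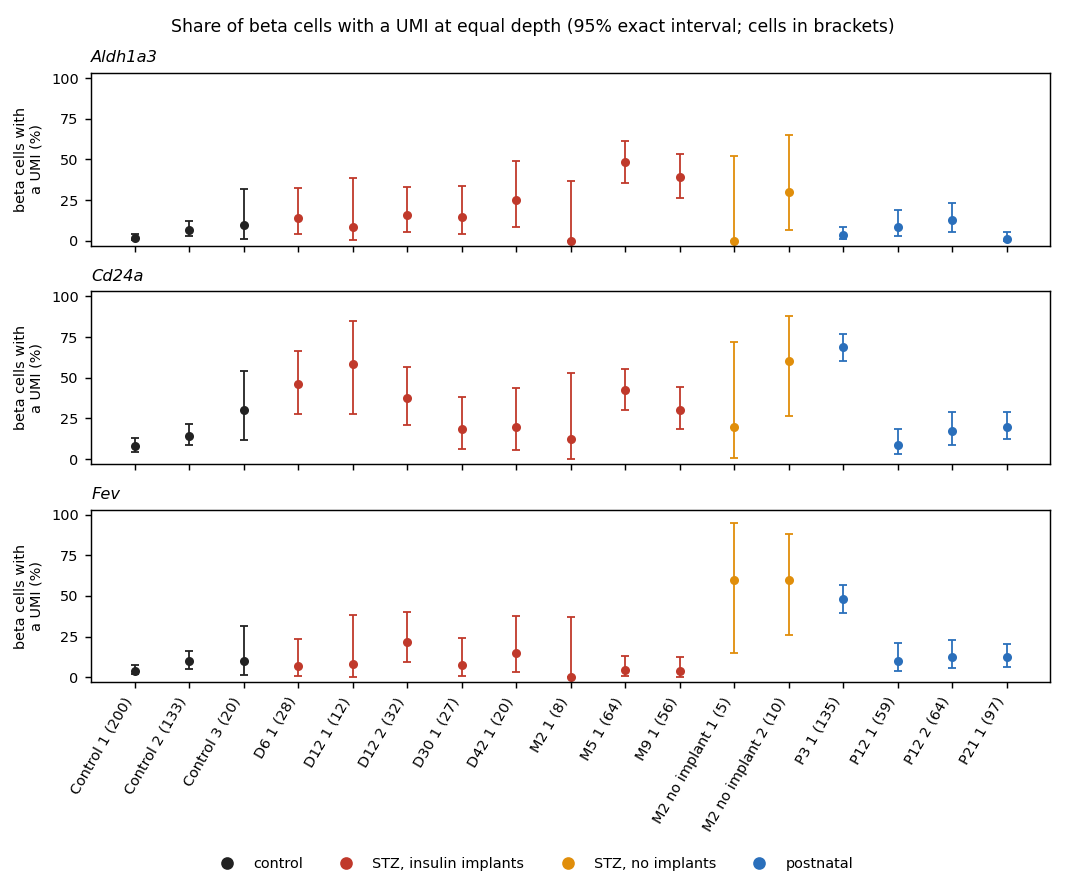
Share of beta cells with at least 1 UMI of Aldh1a3, Cd24a and Fev after thinning to 25470 UMIs, in percent; points are libraries, bars are exact 95% intervals over cells, and the cells counted are in brackets. Aldh1a3 is highest at M5 (48.4%) and M9 (39.3%), Cd24a at P3 (68.9%) and Fev at 60% in both libraries without implants, whose intervals are wide.

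Fev was the member called in mice without implants. Their beta cells had 67.3 CPM (37 UMIs in 5 cells, 24 of them in 1 cell) and 93.2 CPM (73 UMIs in 11 cells), while controls had 2.65, 5.45 and 1.46. Both lay above every control and above every implanted STZ library, which had 8.44 at D6, 4.13 and 43.2 at D12, 1.90 at D30, 9.52 at D42, 0 at M2, 1.77 at M5 and 4.25 at M9. Against controls Fev rose by a log2 fold change of 4.43 ± 0.71 (edgeR adjusted p = 0.0032), 1 of 290 genes called (2.16%). Without implants against with implants at month 2, 14 genes were called (0.105%) and Fev was not (edgeR adjusted p = 0.174, and 0.0443 without replicate 2 of the mice without implants). No fold is given there, since the 8 beta cells of M2 held 0 Fev UMIs, a limit of 7.58 CPM. Alpha cells, at a median of 60 CPM, and PP cells, at 58.6, hold about as much Fev as these beta cells.

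In the beta cells without implants 4 of 5 and 8 of 11 were mixed by the limit above, and without them the Fev difference was 3.57, no longer a call (edgeR adjusted p = 0.10; 5.86e-10 to 0.10 over 24 alternatives). Summed PP markers there were 51222 and 37726 CPM and summed alpha markers 10589 and 20466 CPM, against 4621 to 9580 CPM of alpha markers in controls. Of the 5 PP markers, Vsig1, Sertm1 and Ptgfr were at 0 in both libraries. Their part in the result was not tested. In replicate 2 the 6 Fev-positive cells averaged 1001 thinned Ins2 UMIs and the 4 negative ones 2357, and in D12 replicate 2 the 7 positive cells averaged 812 and the 25 negative ones 2095. At D12 Fev was 2.81 ± 0.69 (edgeR adjusted p = 0.0949, and 0.000884 to 0.938 over 24 alternatives), and 55 of the 98 UMIs behind the higher library lay in 1 cell. Without D12 replicate 1 Fev was a call (3.51, 0.0296), as it was without replicate 1 or 2 of the mice without implants (2.82 each; 0.0201 or 0.0256), and without D12 replicate 2 it was 0.33 (0.938). Over all implanted STZ libraries it was 1.47 ± 0.88 (adjusted p = 0.566). Aldh1a3 (0 and 17.9 CPM) and Cd24a (16.4 and 58.7 CPM) did not pass without implants, at edgeR adjusted p of 0.720 and 0.243. Without replicate 1, Cd24a passed (1.87, edgeR adjusted p = 0.0392), and without replicate 2 it was −0.073 (0.954).

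The calls in postnatal beta cells came at P3 and were Fev and Cd24a. Fev was 52.7 CPM there (755 UMIs), 10.1 and 9.11 at P12 and 7.38 at P21, against 2.65, 5.45 and 1.46 in controls, and P3 stood highest. Cd24a was 230 CPM at P3 (3298 UMIs), 8.16 and 18.2 at P12 and 36.9 at P21. The P12 values enclose those of the controls and the P21 value lies above them. In the P3 contrast Fev rose by 3.61 ± 0.75 (edgeR adjusted p = 0.0369) and Cd24a by 3.58 ± 0.54 (0.0030), 2 of the 80 genes called (0.597%). Cd24a stayed a call in all 23 alternatives, with adjusted p from 3.56e-12 to 0.0241.

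Fev at P3 was lost in 7 of 23 alternatives, over which its edgeR or DESeq2 adjusted p ran from 1.27e-05 to 0.155. Leaving out control replicate 1, 2 or 3 gave 3.41 (0.155), 4.18 (0.0674) or 3.43 (0.103). The value was 3.62 (0.0612) without P12 replicate 1, 3.62 (0.0549) without P12 replicate 2, and 3.96 (0.0939) without the 77 of 142 P3 beta cells that were mixed. After thinning, 48.1% of P3 beta cells held Fev and 68.9% held Cd24a.

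Sox9 and Hes1, the duct and Notch genes, were also highest at P3 without passing. Sox9 had 67.9 CPM at P3 against 1.14, 0.237 and 7.28 in controls, a log2 fold change of 4.73 ± 1.26 (edgeR adjusted p = 0.117, and 0.000221 to 0.434 over 23 alternatives). A single cell held 331 of its 973 UMIs, and the level without that cell was 46.9 CPM. Without control replicate 3 the value was 6.19 (adjusted p = 0.0345), and without replicate 1 or 2 of the mice without implants 4.89 (0.015) or 4.90 (0.0158). Hes1 had 72.6 CPM at P3 against 7.58, 9.84 and 26.9 (2.06 ± 0.75, adjusted p = 0.312). The 27 Sox9-positive P3 cells averaged 3.15 Ucn3 and 3.15 Slc2a2 UMIs, and the 108 others 5.08 and 6.44. Slc2a2 encodes the glucose transporter GLUT2.

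Summed acinar markers in P3 beta cells were 37258 CPM, against 10105 to 34764 CPM in control beta cells. Ductal markers there summed to 1836 CPM with all 11 found, against 453 to 773 CPM in controls, and their part in the P3 values was not tested.

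Sox4 was 24.3 CPM at P3, within the controls' 8.01, 18.8 and 29.9 CPM (0.09 ± 0.73), and 3.94 and 6.77 CPM at P12. Aldh1a3 was 2.09 CPM at P3, 39.9 and 15.9 at P12 and 0.381 at P21. Both P12 libraries lay above every control, but the log2 fold change of 2.36 ± 0.82 did not pass (edgeR adjusted p = 0.331). The P12 contrast called 88 genes (0.657%) and P21 2 (0.0149%), none of them members. Taking the 4 postnatal libraries as 1 arm, edgeR called 5 of 12571 genes (0.0398%; 1320 at an unadjusted p under 0.05, and 225 by DESeq2). None of the 6 members tested was among the 5, and Fev had 2.32 (0.251), Cd24a 2.00 (0.417) and Sox9 3.28 (0.425).

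**Figure D4:**
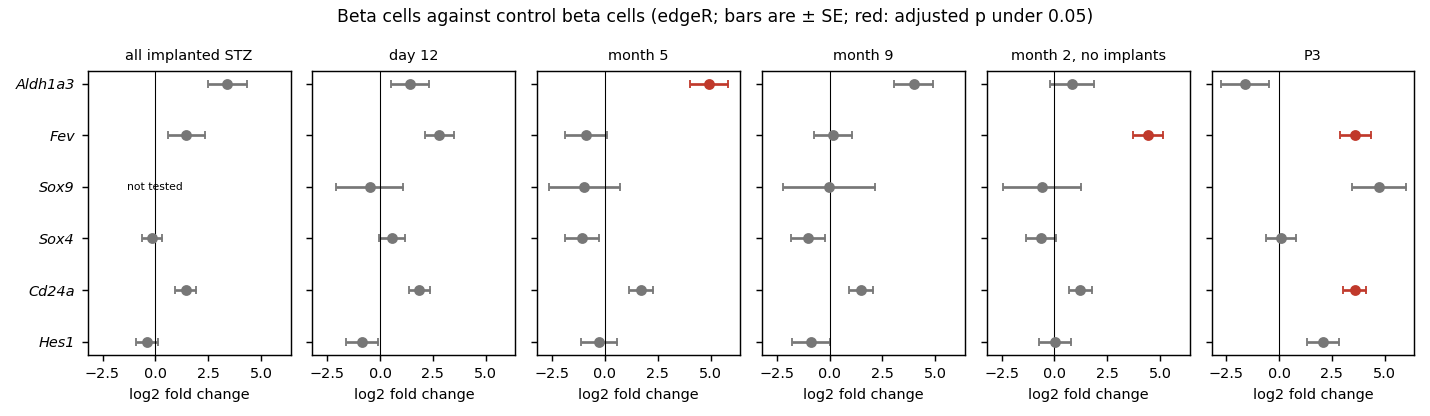
Log2 fold change of 6 of the genes against the 3 control libraries in beta cells, for 6 of the contrasts, with ± 1 standard error; red points passed at an adjusted p under 0.05 by edgeR. The calls are Aldh1a3 at M5 (4.93), Fev without implants (4.43), and Fev (3.61) and Cd24a (3.58) at P3.

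Hes1 and Sox4 were not called in beta cells after STZ. Hes1 ran from 1.38 to 22.8 CPM in the 8 STZ libraries with implants, which encloses 2 of the 3 controls, and Sox4 from 3.81 to 35.8, which encloses all 3. Their log2 fold changes were −0.41 ± 0.51 and −0.16 ± 0.49 (edgeR adjusted p = 0.889 and 0.964), and both turned positive without control replicate 3 (0.33 each). Sox9 ran from 0 to 10.9 CPM and had too few UMIs for that test.

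Alpha, delta and PP cells gave no call for any member. In alpha cells edgeR called 0 of 11055 genes (0.0%; 555 at an unadjusted p under 0.05, and 2 by DESeq2). Sox9 in alpha cells was 0.615 and 0 CPM in controls and 0.352 to 55.6 CPM after STZ with implants, with D42 (55.6) and D6 (45.4) highest. M5 and M9 rested on 1 and 2 UMIs and lay below the 1.85 and 1.92 CPM that 3 counts allow in the controls. The log2 fold change was 5.70 ± 1.95 (adjusted p = 0.949). Cd24a was 9.85 and 14.7 CPM in controls and highest at D42 (135) and D6 (111), and Hes1, at 30.2 and 7.03 CPM in controls, was highest in the same libraries (145 and 80.6). A single cell held 85 of the 123 Sox9 UMIs at D42 and 66 of 146 at D6. Ductal markers in alpha cells summed to 2349 CPM at D42 and 1831 CPM at D6, against 494 to 651 CPM in controls. Their part in the result was not tested. Fev in alpha cells had a log2 fold change of −0.05 ± 0.33.

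The difference between the STZ effects in beta and alpha cells called 27 of 12225 genes (0.221%) and none of the 6 members tested. For delta and PP cells only libraries with at least 5 cells allowed a fit, with 2 controls each. EdgeR called 0 of 8614 (0.0%; 716 at an unadjusted p under 0.05) and 0 of 8334 genes (0.0%; 712), and DESeq2 called 0 in each. Cd24a in delta cells was 468 and 904 CPM in controls and 588 to 1082 CPM after STZ, and Fev there was 48.4 and 51.1 against 27.8 to 83.1. Both pairs of ranges overlapped. In PP cells Cd24a was 4.47 and 5.41 CPM in controls, 1 UMI in each, and 6.77 to 82.5 CPM in the 8 STZ libraries. At 3 counts the controls allow up to 13.4 and 16.2 CPM, so the groups are not separable at this depth. The log2 fold change was 2.52 ± 1.22 (edgeR adjusted p = 0.580).

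The other lists are read against the 2.82% of all genes called in beta cells after STZ. Of 21 maturity genes tested 12 fell and none rose by edgeR, among them Slc2a2 (−2.96), Ucn3 (−3.2) and Trpm5 (−3.79), a cation channel. Of 14 further genes reported in dedifferentiated or stressed beta cells 8 rose, including Slc5a10 (6.95), Gast (4.15), Gpx3 (2.87), Tspan8 (2.56) and Cd81 (1.77). That list and all the others here, the maturity genes included, were drawn up with earlier results of these data known. Their counts and directions are therefore not independent evidence. Tspan8 is also among the 10 leading genes of the PP cluster and Gpx3 of an alpha cluster, and the PP marker sums given above (8814 to 31198 CPM after STZ, 2697 to 5453 CPM in controls) moved with them; their part in the result was not tested. In the retinoid list, to which Aldh1a3 belongs by function, Rbp4 (2.71), a retinol carrier, and Dhrs3 (2.65), which reduces retinaldehyde, rose among 10 tested. Rbp4 is also among the 10 leading genes of the delta cluster, and delta markers in beta cells summed to 740 to 5609 CPM after STZ against 269 to 1247 CPM in controls; their part was not tested. Of 20 Notch genes only Dlk1 (5.49), a noncanonical ligand, rose. Of 23 endocrine progenitor genes Chgb (1.67) and Gast rose and Neurod1 (−0.67) fell, and of 23 epithelial progenitor genes Nkx6-1 (−1.27) fell. Of 8 genes of serotonin handling, a programme that Fev drives in neurons, Maob (−2.20) fell. None of the 2 other Sox genes tested passed. The median log2 fold change of the endocrine progenitor list was 0.08 and that of the maturity list −1.35, beside 0.00 over all genes.

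At P3, in the 12-group fit where 0.597% of all genes were called, 5 of 23 maturity genes fell, led by Cox6a2 (−5.90), Ucn3 (−2.62) and Prlr (−2.76). Dlk1 rose by 6.86, Pyy by 2.19, Rbp4 by 3.52 and the keratin Krt8 by 1.27, Krt8 being the 1 call among 28 epithelial progenitor genes, and Serpina7 fell by 6.26 on the log2 scale. Without implants, where 2.16% of all genes were called, 12 of 23 maturity genes fell, led by Ucn3 (−6.18), and 8 of 16 genes of the dedifferentiation list rose. Dlk1 (5.49) rose and Nkx6-1 (−1.82) and Pdx1 (−1.92), transcription factors of beta cells and of pancreatic progenitors, fell. The contrasts share the 3 controls, and the lists are the same ones, chosen with earlier results of these data known.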

How the data were processed

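The authors deposited a table of UMI counts per gene and cell, made by modified STRT-seq. The tools, per the submitters' processing notes, were UMI-tools 0.5.0, TopHat2 2.1.0, SAMtools 1.3.1 and featureCounts 1.5.3, and mm10 the build. Filters on cells are not given in the sources used here, and no cell was removed for the sums. Whether counting used strand is not given in the sources used here.

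Cells were clustered (Python 3.11.15, scikit-learn 1.9.0, leidenalg 0.10.2) on 300 variable genes other than the 8, in 15 principal components, and named by marker lists. UMIs were summed per library and class and tested with edgeR 4.0.16 (R 4.3.3; TMM, filterByExpr, quasi-likelihood F test, Benjamini-Hochberg over all genes tested, calls at adjusted p under 0.05). Standard errors were derived from that F test. DESeq2 1.42.0 was an alternative. Shares of cells were given after thinning to 25470 UMIs, which left out 300 of 2999 cells. The tests were checked on simulated data. The members, gene lists and markers were chosen with earlier results of these data known. Values of all 8 members are not given for every comparison. From each other list at most the 5 calls of smallest p are named. D6 was read as day 6 from its label, while the design text has day 1 beside it.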

Additional observations from a re-analysis of the deposited data

Results flagged for a closer look

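Over 18 sets of 4 to 8 libraries of 1 arm and class, 7 held a library far from the others by the gap between it and its neighbour. The sets mix ages or times and unequal cell numbers, and P3 recurs among the 7. No chance rate can therefore be set beside that count. In postnatal beta cells P3 stood apart for Fev (52.7 CPM), Sox9 (67.9 CPM), Cd24a (230 CPM) and Hes1 (72.6 CPM). In implanted STZ beta cells D12 replicate 2 stood apart for Fev (43.2 CPM) and D30 for Sox9 (10.9 CPM, with 17 of 23 UMIs in 1 cell). In STZ alpha cells D6 stood apart for Sox4 (44.8 CPM).

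Signal was also present in cells that entered no comparison. The 5 alpha cells of P12 replicate 1 held Aldh1a3 at 344 CPM, with 49 of 72 UMIs in 1 cell, while the 6 alpha cells of P12 replicate 2 held 1 UMI (3.0 CPM) and those of the controls 0. The 40 unnamed P3 cells, which all held Ghrl, Gcg, Ins2 and Sst, had Fev at 108 CPM in 31 cells, Cd24a at 248 CPM in 30 and Hes1 at 197 CPM in 21.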

How the results depend on the processing

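Of 673 values of 32 member results under alternatives, 598 kept their direction and side of the threshold, 49 became calls, 13 lost a call and 13 changed sign. The cause was not tested. The number of members called after STZ, 0 in the main analysis, was 1 with DESeq2 size factors, 2 without the low-count filter, 1 after thinning, 2 without mixed cells, 1 in libraries with at least 20 beta cells, and 0 to 1 leaving out 1 library. For postnatal mice it was 0, then 1 by DESeq2 and 3 without the filter. For D12 it was 0, then 2 by DESeq2, 2 without the filter, 1 after thinning and 0 to 2 leaving out 1 library. For the other STZ times together it was 1, then 0 by DESeq2, 7 without the filter, 3 after thinning, 3 without mixed cells and 0 to 4 leaving out 1 library. For the postnatal days it was 2, then 5 without the filter, 1 without mixed cells and 1 to 2 leaving out 1 library. Without implants it was 1 to 2 leaving out 1 library, and without against with implants it was 1 without the filter and 0 to 1 leaving out 1 library.

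Replicate numbers did not pair the libraries (correlations of deviations from −0.08 to 0.15, 6 group pairs). With the replicate number as a block, the STZ times gave 0 calls (Aldh1a3 at M5 was 6.23, edgeR adjusted p = 0.0599) and the postnatal days 1, and the STZ differences of Hes1 and Sox4 turned to 0.41 and 0.62. In the cells with 1 shared raw file code, chosen after seeing the data, they were 0.99 and 0.019. After thinning, Sox4 was 0.12 after STZ and −0.14 at P3. Leaving out 1 library, values ran from −0.76 to 0.33 for Hes1 and −0.57 to 0.33 for Sox4 after STZ, −0.32 to 0.58 for Sox4 at P3, −0.18 to 0.056 for Fev in alpha cells, and, without implants, −0.073 to 1.87 for Cd24a and −7.63 to 1.78 for Aldh1a3, whose low end has a lone library with 0 UMIs.

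With 2 or more UMIs required, the thinned share of beta cells in controls and implanted STZ mice was 1.42 and 23.1% for Aldh1a3, 4.25 and 19.0% for Cd24a and 2.27 and 3.24% for Fev. Without thinning it was 19.5 and 49.4% for Cd24a and 13.8% for Fev after STZ. Genes called after STZ numbered 303, or 570 by DESeq2, 492 without the filter, 93 with the block and 458 in libraries with at least 20 beta cells. For the other contrasts the counts by DESeq2 and without the filter were 482 and 874 for the STZ times (181 in the main analysis), 464 and 699 for the postnatal days (170), 194 and 275 for D12 (69), 591 and 628 without implants (290), 96 and 169 without against with implants (14), and 225 and 301 for postnatal mice (5). Thinning gave 434, 427, 158, 241, 5 and 37, and the block 115, 131, 38, 153, 10 and 0, in the same order. Without mixed cells 22 were called without against with implants, and the member called without implants was Cd24a (3.11) in place of Fev. The main fits of delta and PP cells, planned for libraries with at least 10 cells, and alpha cells without mixed cells were not run for lack of control libraries. Few beta cells after STZ limit what depth can show, above all at M2 and without implants.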
